A study of Homo sapiens with 6 samples.

Results

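The genes described here encode the collagen chains and the proteins that modify, cleave, cross-link or bind collagen. They were found by symbol among the 19156 protein-coding genes of the count tables: each gene named as a collagen chain (COL, a number, A and a number), the P4HA, PLOD and LOXL families, and 14 single genes from LOX and SERPINH1 to BGN. The rule found 68 genes, 44 collagen chain genes and 24 processing genes, and 4 antisense RNA genes that carry a matching symbol were left out as not protein-coding. Poly(A)-selected RNA was sequenced from 3 libraries labelled C17orf80 knockout (KO), whose cells received a guide RNA against C17orf80, and from 3 wild-type (WT) libraries, whose cells received a guide with no target. All cells were HEK-293T, a transformed line derived from embryonic kidney, in DMEM with 10% serum. The knockout line was made with CRISPR/Cas9, and monoclonal cells were selected in 3 μg/ml puromycin. All 6 libraries carry this treatment text, which does not say whether the WT cells were selected in the same way. The labels do not give how many clones lie behind the 3 libraries labelled KO. A difference between clones and an effect of the guide cannot be told apart. Separate cultures for the libraries of a group were not stated either. The p-values therefore describe only how these libraries vary, which may be technical variation.

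A collagen molecule is a trimer of chains wound into a triple helix, whose regularly spaced glycines allow the tight winding. In the endoplasmic reticulum prolines and lysines of the chains are hydroxylated, sugars are added to hydroxylysine, and the chaperone HSP47 (SERPINH1) binds the folded helix. After secretion, proteinases trim the ends of fibrillar procollagens, fibrils assemble, and lysyl oxidases form the cross-links that make them stable. Fibrillar collagens give tissues tensile strength, collagen IV forms the network of basement membranes such as that of the kidney glomerulus, and the fibril-associated, beaded-filament and transmembrane collagens link fibrils, cells and matrix.

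Gene counts per library lay between 14982340 and 16278091. C17orf80 had 763, 699 and 698 counts in replicates 1 to 3 labelled KO, against 397, 451 and 476 in WT replicates 1 to 3. Its transcript was thus higher where the label says knockout (log2 fold change 0.78 ± 0.17, SE; edgeR adjusted p = 0.0232), which goes against a loss of the transcript and did not pass without any single WT library (edgeR adjusted p between 0.0999 and 0.127) or without replicate 3 labelled KO (edgeR adjusted p = 0.0549), and "labelled KO" is used below as the name of the group. Replicate 1 labelled KO stood apart: on log2 CPM (counts scaled to library size with TMM, which corrects for library composition) its Pearson correlation with the other libraries labelled KO was 0.932 and 0.945 across genes, whereas those reached 0.987 with each other. Mitochondrially encoded genes took 11.9% of its gene counts, 4.53% and 5.00% in replicates 2 and 3 labelled KO, and 4.65% to 4.71% in WT, and the part of this in the results was not tested. It lay below the other 5 libraries for 33 of the 50 tested members, where 38.2% of all tested genes did so, and above them for 8, where 35.9% of all genes did so. The median log2 ratio of its level to the mean of replicates 2 and 3 labelled KO was -0.52 over tested members and -0.025 over all tested genes. Where leaving it out changed the call of a gene whose fold change or adjusted p is given below, the value without it is given. Leukocyte markers (PTPRC, CD68 and CD3E at 0 counts in all libraries, CD14 and TYROBP at up to 14 counts) had few counts. Of 5 endothelial markers CDH5 had 0 counts, PECAM1, VWF and TEK had at most 9, and KDR had 0, 10 and 13 counts in the libraries labelled KO, against 28, 24 and 18 in WT (log2 fold change -1.58, edgeR adjusted p = 0.198). Of the kidney lineage markers, SALL1, PAX2, EYA1 and WT1 had counts in all 6 libraries, while PAX8 and LHX1 had at most 11. WT1 rose and EYA1 fell in the libraries labelled KO (log2 fold change 1.67, edgeR adjusted p = 0.00298, and -1.41, edgeR adjusted p = 0.00610).

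Of the 68 members 50 had enough counts to be tested, 6 of them through the counts of a single group, and 18 were left out with at most 29 counts in any library. These 6 were COL2A1, COL12A1 and COL4A3 through the libraries labelled KO, and COL21A1, COL23A1 and ADAMTS14 through WT. Each was tested because of the group with its higher level. The same held for TLL1, MMP16, PRRX1 and INA (labelled KO) and POSTN (WT), described below, and for KDR (WT), described above. Across all 17452 genes tested 8.64% rose and 6.50% fell in the libraries labelled KO (15.1% in either direction; edgeR quasi-likelihood test, Benjamini-Hochberg adjusted p under 0.05). Of the tested members 7 rose, 12 fell and 31 did not pass. The members that rose were COL2A1, COL4A4, COL12A1, COL19A1, COL25A1, LOX and LUM. Those that fell were COL1A1, COL3A1, COL5A1, COL5A2, COL4A5, COL6A2, COL21A1, COL23A1, P4HA1, PLOD1, PLOD3 and SPARC. The median log2 fold change, labelled KO over WT, was -0.29 over tested members and 0.0055 over all tested genes. Levels of the 2 groups did not overlap in 32 of the 50 members, beside 47.6% of all tested genes. With each of the 6 libraries left out in turn, 7 members kept their call and direction: COL2A1, COL4A4, COL3A1, COL5A1, COL4A5, COL23A1 and SPARC (3.33% of all tested genes did so). Without replicate 1 labelled KO, 16 of 53 tested members rose and 21 fell, in a fit that called 44.0% of all genes (22.3% higher, 21.7% lower). Without replicate 2 labelled KO 21 members were called (14.9% of all genes). Without replicate 3 labelled KO 9 members were called (6.48% of all genes). Without WT replicate 1, 2 or 3 it was 7 each time (3.63%, 3.69% and 3.54%), and with the replicate number as a block it was 10 (5.55%). RNA was measured from bulk cells, so fewer cells that express a gene and less of its RNA per cell cannot be told apart. Transcript lengths were not used here, and levels are compared between libraries, not between genes.

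**Figure D1:**
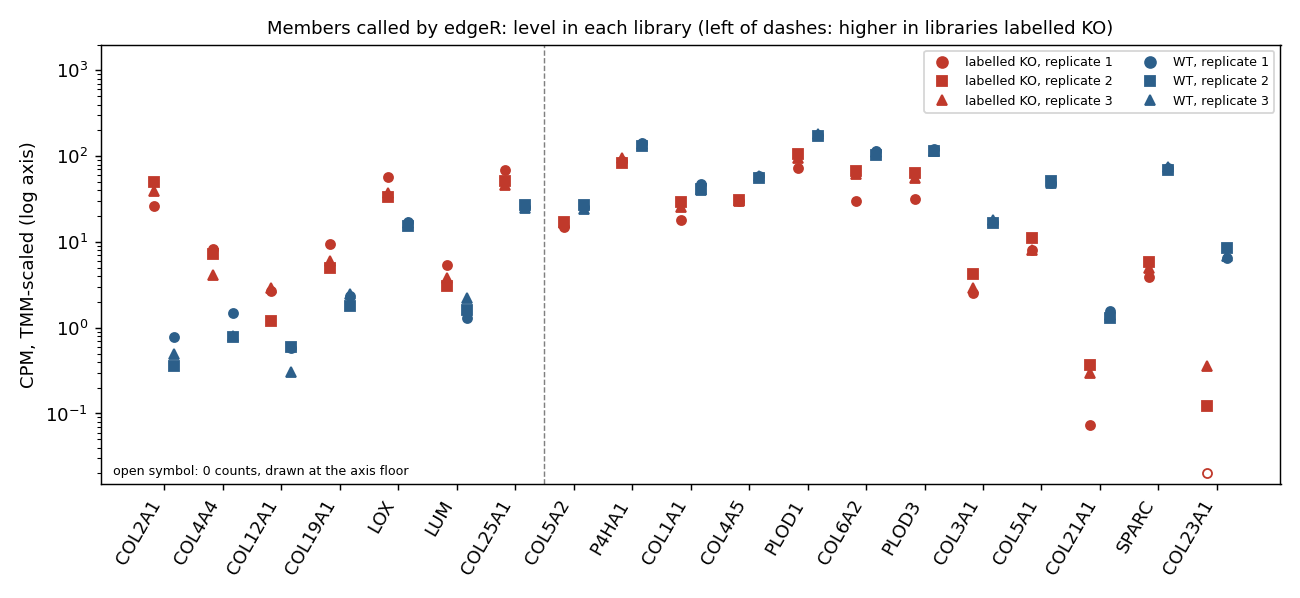
Level of the 19 called members in each library, in CPM scaled by TMM, on a log axis. Each symbol is a library (red labelled KO, blue WT), and the open symbol marks COL23A1 at 0 counts in replicate 1 labelled KO. The red and blue symbols of a gene do not overlap, from COL2A1 (log2 fold change 6.16) at the left to COL23A1 (-5.37) at the right.

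Among the 11 fibrillar collagen genes the make-up of the expressed set differed between the groups: COL2A1, the chain of cartilage type II collagen, rose, and COL1A1, COL3A1, COL5A1 and COL5A2 fell. COL27A1 and COL24A1 did not pass the test, and the other 4 genes had too few counts. COL2A1 (chromosome 12, 47972967 to 48006212 on GRCh38) had 360, 828 and 663 counts in replicates 1 to 3 labelled KO, against 12, 6 and 8 counts in WT replicates 1 to 3. Each library labelled KO lay far above each WT library. The mean level was 38.8 ± 11.8 CPM in the libraries labelled KO and 0.541 ± 0.216 CPM in WT (SD, n = 3 each), a 71.7-fold ratio (log2 fold change 6.16 ± 0.38, edgeR adjusted p = 0.000267, and 6.38 without replicate 1 labelled KO).

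COL5A1 (chromosome 9, 134641803 to 134844843), which encodes the chain of type V collagen that with COL5A2 helps to start and size collagen fibrils, had 108, 186 and 136 counts in the libraries labelled KO, against 756, 859 and 804 in WT. The highest library labelled KO stayed well under the lowest WT library. Its mean was 9.13 ± 1.85 CPM in the libraries labelled KO and 49.7 ± 1.04 CPM in WT (SD, n = 3 each; log2 fold change -2.44 ± 0.18, edgeR adjusted p = 0.000539). COL5A2 fell less, with 204, 286 and 278 counts in the libraries labelled KO, against 391, 454 and 393 in WT (log2 fold change -0.64 ± 0.14, edgeR adjusted p = 0.0281). The count ratio of COL5A2 to COL5A1 was accordingly 1.89, 1.54 and 2.04 in the libraries labelled KO, against 0.517, 0.529 and 0.489 in WT. The remaining type V chain gene, COL5A3, had between 1 and 6 counts per library.

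COL3A1 (chromosome 2, 188974373 to 189012746), the chain of type III collagen found in extensible tissues, had 34, 69 and 48 counts in the libraries labelled KO, against 266, 283 and 293 in WT. Its mean was 3.19 ± 0.877 CPM in the libraries labelled KO and 17.3 ± 0.573 CPM in WT (SD, n = 3 each; log2 fold change -2.43 ± 0.23, edgeR adjusted p = 0.00132). COL3A1 and COL5A2 lie 19.15 kb apart on chromosome 2, and both fell, COL3A1 with the larger log2 fold change. COL1A1 (chromosome 17), the main chain of type I collagen, had 246, 480 and 432 counts in the libraries labelled KO, against 722, 706 and 661 in WT (log2 fold change -0.82 ± 0.20, edgeR adjusted p = 0.0350). Its usual partner chain COL1A2 had 0 counts in all 6 libraries, which allows at most 0.0624 CPM in the libraries labelled KO and 0.0637 CPM in WT by a limit of 3 counts over a group (counting error only). COL27A1, the most counted fibrillar gene, had 307, 886 and 761 counts in the libraries labelled KO, against 1029, 1250 and 1065 in WT, with no overlap (-0.75 ± 0.30, edgeR adjusted p = 0.126), and passed as lower without replicate 1 labelled KO (-0.46, edgeR adjusted p = 0.000163). The calls of COL1A1 and COL5A2 were lost without any single WT library (edgeR adjusted p between 0.112 and 0.151) and without replicate 3 labelled KO (edgeR adjusted p = 0.0890 and 0.0868).

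Shares of each library's fibrillar collagen counts describe the make-up of the set in each library. COL2A1 made up 27.6%, 29.5% and 27.9% of fibrillar counts in replicates 1 to 3 labelled KO, against 0.370%, 0.164% and 0.244% in WT. COL5A1 made up 8.28%, 6.62% and 5.72% in the libraries labelled KO, against 23.3%, 23.5% and 24.5% in WT, and COL3A1 2.61%, 2.46% and 2.02%, against 8.19%, 7.75% and 8.93%. The share of COL1A1 differed less, at 18.9%, 17.1% and 18.2% in the libraries labelled KO, against 22.2%, 19.3% and 20.2% in WT, and did not overlap either. Because the shares of a library sum to its whole set, a larger COL2A1 share lowers the shares of the other genes together. The lower COL1A1 share therefore does not show a loss relative to the fibrillar genes other than COL2A1. Taken over the fibrillar counts without COL2A1, the COL1A1 share was higher in each library labelled KO than in each WT library. Replicate 1 labelled KO differed from the others of its group in COL27A1, with 23.5%, 31.5% and 32.0% in replicates 1 to 3 labelled KO, against 31.7%, 34.2% and 32.5% in WT, and in COL5A2, with 15.6%, 10.2% and 11.7%, while WT lay near 12%. The summed level of the fibrillar genes was 96.2, 170.1 and 142.7 CPM in the libraries labelled KO, against 210.7, 216.5 and 200.5 CPM in WT.

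**Figure D2:**
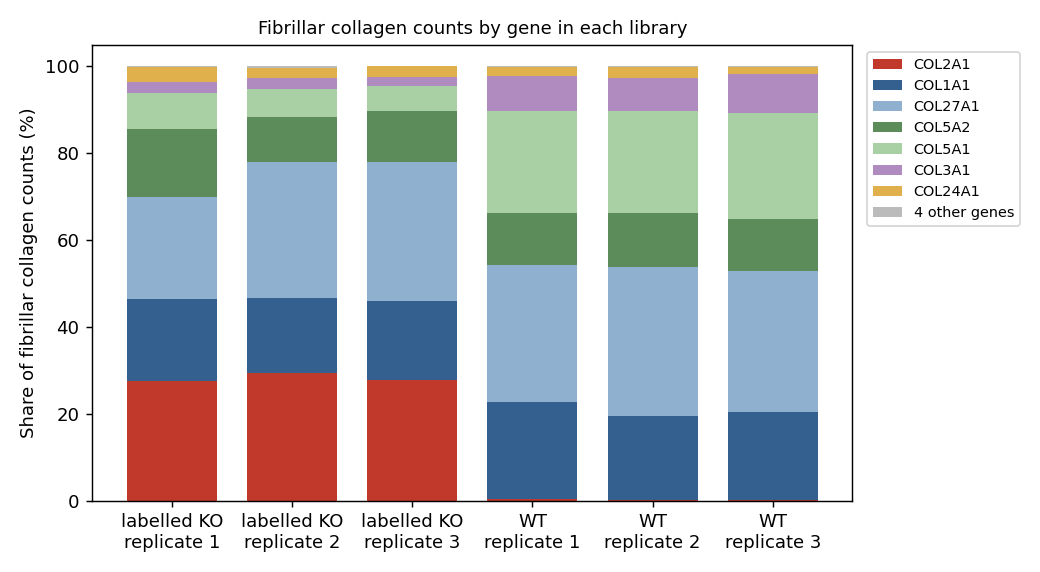
Share of fibrillar collagen counts taken by each gene (percent, stacked to the total), with a bar per library, libraries labelled KO at the left and WT at the right. The COL2A1 segment fills 27.6% to 29.5% in the libraries labelled KO and under 0.4% in WT, while the COL5A1 and COL3A1 segments are narrower in the libraries labelled KO.

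The 6 collagen IV genes form 3 head-to-head pairs, each pair starting from a short shared stretch of DNA and transcribed away from it. Of the 6 genes 1 rose, 1 fell and 4 did not pass, and their summed level was 151, 300.9 and 250.2 CPM in the libraries labelled KO, against 236, 233 and 219.9 CPM in WT. The sequences between the paired starts are shown because the members of a pair share them (RefSeq promoter table, GRCh38.p14, plus strand, 5′ to 3′). Capitals mark CCAAT or GGGCGG on either strand, TATAAA was searched for as well, and no matches overlapped in these stretches.
COL4A4/COL4A3, chr2:227164489-227164623, the whole space of 135 bases: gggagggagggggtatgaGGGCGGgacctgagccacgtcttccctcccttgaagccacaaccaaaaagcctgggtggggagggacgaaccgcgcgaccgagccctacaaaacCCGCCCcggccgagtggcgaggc
COL4A6/COL4A5, chrX:108439588-108439837, the 250 bases nearest COL4A5 of a space of 379: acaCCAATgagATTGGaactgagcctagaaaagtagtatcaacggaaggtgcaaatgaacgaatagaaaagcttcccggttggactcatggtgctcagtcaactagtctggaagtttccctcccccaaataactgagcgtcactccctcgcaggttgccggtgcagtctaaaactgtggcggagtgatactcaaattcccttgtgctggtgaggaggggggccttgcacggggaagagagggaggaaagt
COL4A1/COL4A2, chr13:110307158-110307283, the whole space of 126 bases: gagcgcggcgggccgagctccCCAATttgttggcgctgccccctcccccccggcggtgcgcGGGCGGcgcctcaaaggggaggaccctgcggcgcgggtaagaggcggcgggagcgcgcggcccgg
The stretch between COL4A4 and COL4A3 holds 2 GGGCGG matches and no CCAAT, and that between COL4A1 and COL4A2 holds 1 of each. The 250 bases nearest COL4A5 hold 2 CCAAT matches and no GGGCGG. The rest of the 379 bases, on the COL4A6 side, was not searched, so this pair cannot be compared with the others over its whole space.

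On chromosome 2, COL4A4, a chain of the adult glomerular basement membrane, had 111, 121 and 69 counts in the libraries labelled KO, against 23, 13 and 13 in WT (log2 fold change 2.68 ± 0.40, edgeR adjusted p = 0.00686). The lowest library labelled KO was 3 times the highest WT library in counts. Its neighbour COL4A3 had 28, 35 and 26 counts in the libraries labelled KO, against 16, 24 and 7 in WT, close but without overlap, and did not pass (0.98 ± 0.46, edgeR adjusted p = 0.181). The span of MFF-DT overlaps that of COL4A3, and MFF-DT had 34, 32 and 35 counts in the libraries labelled KO, against 13, 7 and 24 in WT. The annotated span of RHBDD1 overlaps that of COL4A4, and strand was not stated for the counts; RHBDD1 had 1216, 787 and 909 counts in the libraries labelled KO, against 817, 895 and 932 in WT.

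On the X chromosome, COL4A5, the chain that joins COL4A3 and COL4A4 in the glomerulus, had 404, 516 and 498 counts in the libraries labelled KO, against 894, 937 and 960 in WT. After scaling the libraries labelled KO lay close together, at 30.3 ± 0.816 CPM, against 57.4 ± 1.66 CPM in WT (SD, n = 3 each; log2 fold change -0.92 ± 0.13, edgeR adjusted p = 0.00482). COL4A6, on the other side of the shared stretch, had 277, 545 and 615 counts in the libraries labelled KO, against 440, 435 and 407 in WT, where replicate 1 labelled KO was the lowest library and replicates 2 and 3 the highest (0.19 ± 0.23, edgeR adjusted p = 0.587). Without replicate 1 labelled KO it passed as higher (0.41, edgeR adjusted p = 0.00183). The count ratio of COL4A5 to COL4A6 was 1.46, 0.947 and 0.810 in the libraries labelled KO, against 2.03, 2.15 and 2.36 in WT.

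On chromosome 13 lie COL4A1 and COL4A2, whose chains make the collagen IV found in nearly all basement membranes. COL4A1 had 483, 1186 and 1126 counts in the libraries labelled KO, against 948, 1036 and 937 in WT (-0.04 ± 0.26, edgeR adjusted p = 0.925). COL4A2 had 745, 2567 and 1839 counts in the libraries labelled KO, against 1320, 1482 and 1273 in WT (0.35 ± 0.34, edgeR adjusted p = 0.492). For both genes replicate 1 labelled KO was the lowest of the 6 libraries and replicates 2 and 3 the highest, and without replicate 1 both passed the edgeR test as higher (log2 fold change 0.22, edgeR adjusted p = 0.0258, and 0.67, edgeR adjusted p = 4.00e-06).

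**Figure D3:**
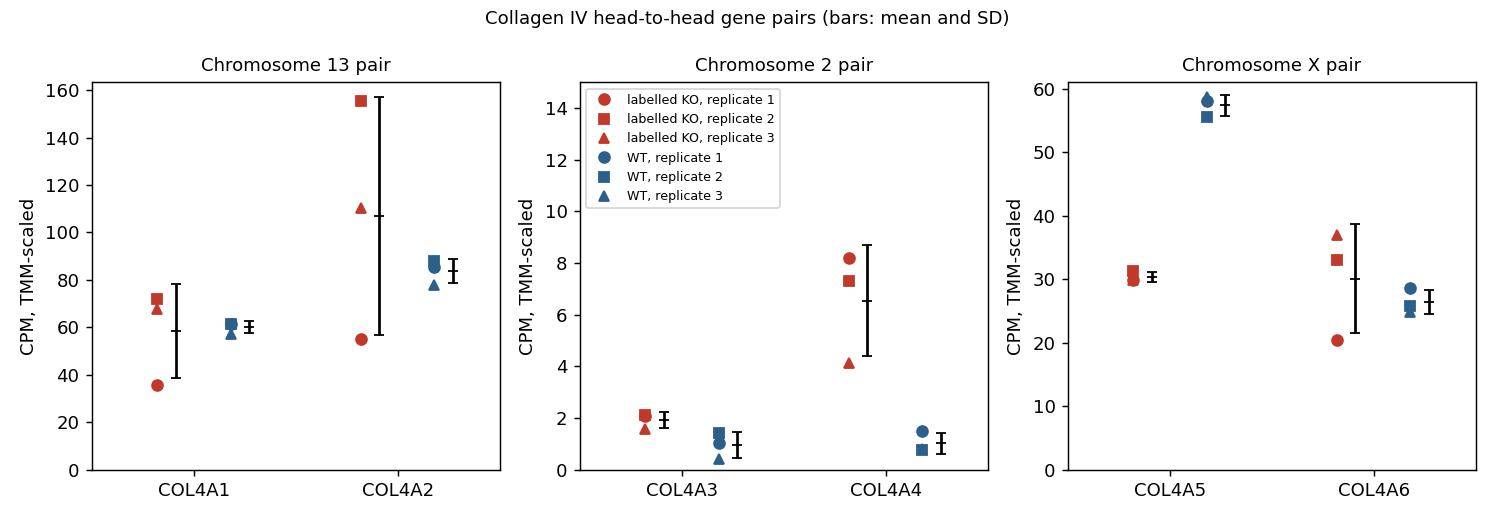
Level of the 6 collagen IV genes in each library (CPM scaled by TMM, linear axes that differ between panels), a panel per head-to-head pair, with mean and SD beside the symbols. COL4A5 is lower in the libraries labelled KO (30.3 against 57.4 CPM) and COL4A4 higher (6.55 against 1.02 CPM), while COL4A1, COL4A2 and COL4A6 span the WT values, with replicate 1 labelled KO below them.

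Among the 4 transmembrane collagens COL23A1 fell and COL25A1 rose. COL23A1 (chromosome 5, 178237618 to 178590393), which encodes a cell-surface collagen that can be shed, had 0, 2 and 6 counts in the libraries labelled KO, against 101, 145 and 111 in WT. It was nearly absent from the libraries labelled KO, at 0.160 ± 0.183 CPM, and present in WT at 7.31 ± 1.12 CPM (SD, n = 3 each; log2 fold change -5.37 ± 0.60, edgeR adjusted p = 0.00233). Without replicate 3 labelled KO the log2 fold change was the lowest of the fits that left out 1 library, at -6.63, and without replicate 1 labelled KO it was the highest, at -4.87. COL25A1 (chromosome 4, 108808725 to 109302658), the collagenous amyloid plaque component of neurons, was the most counted gene of the class, with 933, 838 and 780 counts in the libraries labelled KO, against 394, 457 and 403 in WT. It rose by 1.11 ± 0.18 on the log2 scale (edgeR adjusted p = 0.00970), with no overlap between groups, and its call was lost without any single WT library (edgeR adjusted p between 0.0588 and 0.0701). COL13A1, of the neuromuscular junction, did not pass (-0.56 ± 0.20, edgeR adjusted p = 0.105) except without replicate 1 labelled KO (-0.40, edgeR adjusted p = 0.0368), and COL17A1, of hemidesmosomes, had at most 11 counts.

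Of 10 fibril-associated collagens 2 rose, 1 fell, 3 did not pass and 4 had too few counts. COL12A1, a component of dense connective tissue that sits on fibril surfaces, had 36, 20 and 49 counts in the libraries labelled KO, against 9, 10 and 5 in WT (log2 fold change 2.18 ± 0.49, edgeR adjusted p = 0.0269). COL19A1, found in muscle and in brain, had 129, 82 and 101 counts in the libraries labelled KO, against 36, 30 and 41 in WT (1.63 ± 0.32, edgeR adjusted p = 0.0176). Its neighbour 2.59 kb away, COL9A1, had at most 5 counts. COL21A1 had 1, 6 and 5 counts in the libraries labelled KO, against 24, 22 and 23 in WT (-2.46 ± 0.52, edgeR adjusted p = 0.0226). These 3 calls rest on low counts, without overlap between groups, and each was lost without any single WT library (edgeR adjusted p of 0.0773 or more) and without replicate 3 labelled KO, where COL19A1 lay just over the threshold and COL21A1 and COL12A1 had edgeR adjusted p of 0.0711 and 0.0891. COL14A1, the most counted gene of the class, had 407, 320 and 316 counts in the libraries labelled KO, against 430, 537 and 507 in WT (-0.41 ± 0.21, edgeR adjusted p = 0.217), with overlap on the CPM scale, and fell without replicate 1 labelled KO (-0.65, edgeR adjusted p = 2.54e-05). COL9A3, a chain of cartilage collagen IX, had 18, 247 and 176 counts in the libraries labelled KO, against 168, 146 and 169 in WT, with replicate 1 labelled KO far below all others. The span of TCFL5 overlaps that of COL9A3. The log2 fold changes of COL9A2 and COL9A3 were -0.11 and -0.15, and 0.34 and 0.37 without that library, none of which passed edgeR.

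Of the 5 collagen VI genes, whose chains build beaded microfilaments around cells, COL6A2 fell, COL6A1 and COL6A3 did not pass, and COL6A5 and COL6A6 had at most 16 counts. COL6A2 had 412, 1110 and 1033 counts in the libraries labelled KO, against 1778, 1758 and 1815 in WT (log2 fold change -1.05 ± 0.29, edgeR adjusted p = 0.0487). COL6A1, 93.06 kb from it on chromosome 21, had 961, 2477 and 2106 counts in the libraries labelled KO, against 2541, 2683 and 2562 in WT (-0.47 ± 0.26, edgeR adjusted p = 0.249), and passed as lower without replicate 1 labelled KO (-0.20, edgeR adjusted p = 0.0256). The WT libraries lay above all libraries labelled KO for both genes. The count ratio of COL6A1 to COL6A2 was 2.33, 2.23 and 2.04 in the libraries labelled KO, against 1.43, 1.53 and 1.41 in WT. COL6A3, the third chain of the common heterotrimer, had 17, 12 and 14 counts in the libraries labelled KO, against 26, 24 and 29 in WT (-0.80 ± 0.36, edgeR adjusted p = 0.165). The call of COL6A2 was lost without any single WT library (edgeR adjusted p between 0.140 and 0.165) and without replicate 3 labelled KO (edgeR adjusted p = 0.0903), and without replicate 1 labelled KO its log2 fold change was -0.76.

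None of the 8 network-forming, anchoring, multiplexin and other collagen genes passed the test over all 6 libraries, and 5 of them had too few counts. At an unadjusted edgeR p under 0.05 there were 0 as well, limma-voom called 0, and DESeq2 called COL10A1 alone (DESeq2 adjusted p = 0.0249). Over all genes limma-voom called 15.1% and DESeq2 17.7%. COL7A1, the chain of the anchoring fibrils under epithelia, had 155, 637 and 628 counts in the libraries labelled KO, against 298, 382 and 311 in WT (log2 fold change 0.53 ± 0.42, edgeR adjusted p = 0.405). COL18A1, the source of endostatin, had 439, 1494 and 1160 counts in the libraries labelled KO, against 804, 951 and 773 in WT (0.31 ± 0.34, edgeR adjusted p = 0.556). For both, replicate 1 labelled KO lay below every WT library and replicates 2 and 3 above, and without replicate 1 both rose (COL7A1 by 0.91, edgeR adjusted p = 1.21e-07; COL18A1 by 0.63, edgeR adjusted p = 9.37e-06). COL10A1, of hypertrophic cartilage, had 29, 10 and 14 counts in the libraries labelled KO, against 3, 5 and 1 in WT. Spans of NT5DC1 and SLC19A1 overlap those of COL10A1 and COL18A1. COL10A1 was below the filter over all libraries, and edgeR called it higher without replicate 1 labelled KO (1.93, edgeR adjusted p = 0.0374). Summed over all 44 chain genes the level was 521, 938 and 801 CPM in the libraries labelled KO, against 903, 901 and 860 CPM in WT, with replicate 1 labelled KO lowest and replicate 2 labelled KO highest.

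**Figure D4:**
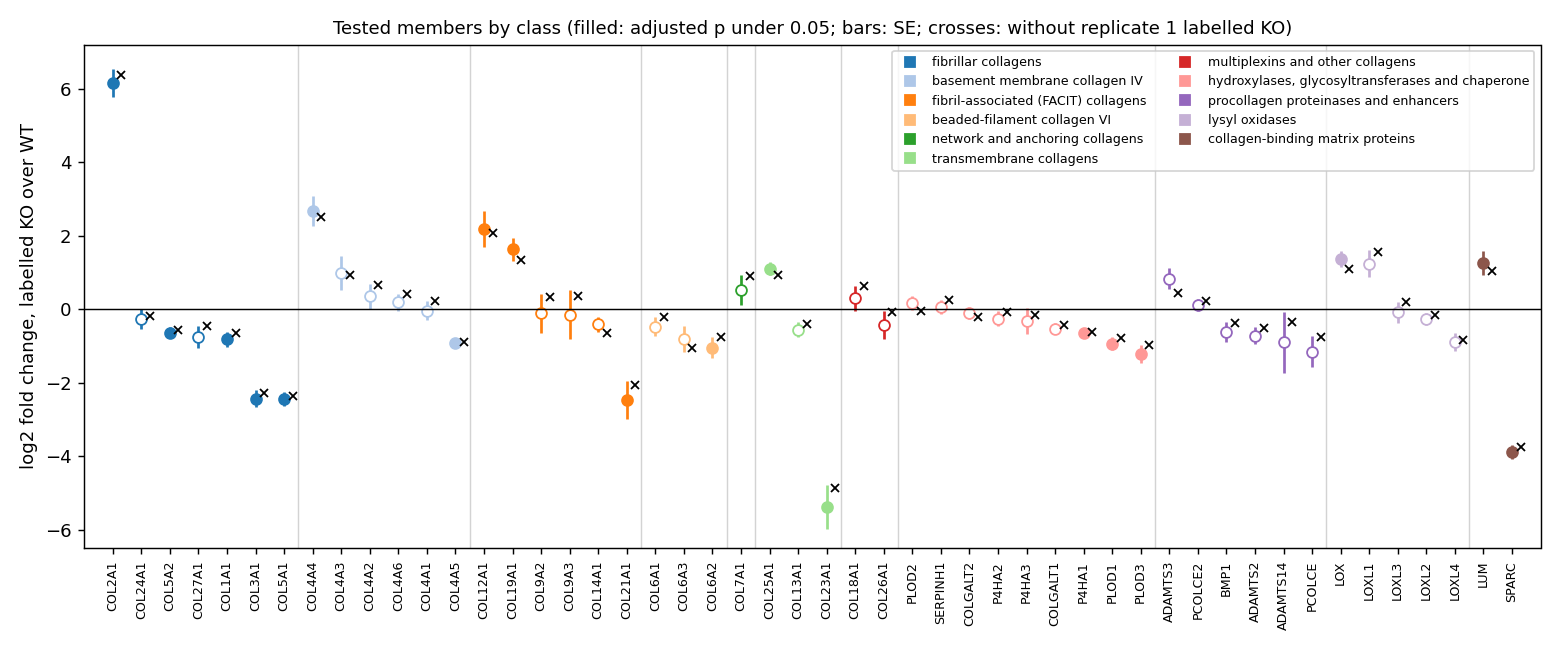
Log2 fold change, labelled KO over WT, of the 50 tested members, coloured and ordered by class, with standard errors. Filled symbols passed edgeR and crosses show the same fit without replicate 1 labelled KO. COL2A1 (6.16) stands opposite COL3A1 and COL5A1 (-2.43 and -2.44) within the fibrillar class, and COL25A1 (1.11) opposite COL23A1 (-5.37) within the transmembrane class.

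Of the 9 genes for modification enzymes and the HSP47 chaperone 3 fell, none rose and 6 did not pass. P4HA1, a catalytic subunit of prolyl 4-hydroxylase, had 1180, 1377 and 1590 counts in the libraries labelled KO, against 2196, 2248 and 2299 in WT (log2 fold change -0.65 ± 0.13, edgeR adjusted p = 0.0177). Among the lysyl hydroxylase genes PLOD1 and PLOD3 fell, and PLOD2 did not pass. PLOD1 had 986, 1775 and 1604 counts in the libraries labelled KO, against 2733, 2875 and 2943 in WT (-0.93 ± 0.17, edgeR adjusted p = 0.0143). PLOD3, whose enzyme also transfers sugars, had 431, 1050 and 923 counts in the libraries labelled KO, against 1867, 1951 and 1886 in WT (-1.22 ± 0.25, edgeR adjusted p = 0.0204). For all 3 genes the groups stood clear of each other. PLOD2, the telopeptide lysyl hydroxylase and most counted gene of the class, had 4330, 3335 and 3669 counts in the libraries labelled KO, against 3501, 3397 and 3715 in WT, with overlap (0.18 ± 0.20, edgeR adjusted p = 0.553). The count ratio of PLOD2 to PLOD1 was 4.39, 1.88 and 2.29 in the libraries labelled KO, against 1.28, 1.18 and 1.26 in WT. The other 5 genes had log2 fold changes between -0.53 for COLGALT1, which encodes the main collagen galactosyltransferase and narrowly missed the threshold (edgeR adjusted p = 0.0530), and 0.066 for SERPINH1 (edgeR adjusted p = 0.828). Without replicate 1 labelled KO both passed, COLGALT1 as lower (-0.42, edgeR adjusted p = 1.16e-05) and SERPINH1 as higher (0.25, edgeR adjusted p = 0.00594). COLGALT1 was also called lower by DESeq2 (DESeq2 adjusted p = 0.0304), by limma-voom (limma-voom adjusted p = 0.0495) and without replicate 2 labelled KO (edgeR adjusted p = 0.0436). It did not pass without replicate 3 labelled KO or any single WT library (edgeR adjusted p between 0.124 and 0.204). The calls of P4HA1, PLOD1 and PLOD3 were lost without any single WT library (edgeR adjusted p between 0.0729 and 0.109) and without replicate 3 labelled KO (edgeR adjusted p between 0.0533 and 0.0604).

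None of the 6 genes for procollagen proteinases and their enhancers passed over all 6 libraries; at an unadjusted edgeR p under 0.05, ADAMTS2 and PCOLCE were lower and ADAMTS3 was higher. DESeq2 called the same 3 genes (DESeq2 adjusted p between 0.0342 and 0.0471), where it called 17.7% of all genes. The limma-voom fit called 0, where it called 15.1% of all genes. The share of all genes at an unadjusted edgeR p under 0.05 was not taken, so that count has no background. PCOLCE2, the most counted gene of the class and an enhancer of C-propeptide cleavage, had 255, 396 and 375 counts in the libraries labelled KO, against 294, 301 and 380 in WT (log2 fold change 0.12 ± 0.17, edgeR adjusted p = 0.660). Its relative PCOLCE had 61, 282 and 247 counts in the libraries labelled KO, against 423, 469 and 429 in WT (-1.16 ± 0.42, edgeR adjusted p = 0.107). PCOLCE-AS1, whose span overlaps that of PCOLCE, had 20, 21 and 32 counts in the libraries labelled KO, against 53, 48 and 55 in WT. The N-propeptidase genes ADAMTS2 and ADAMTS3 had log2 fold changes of -0.72 and 0.84 (edgeR adjusted p = 0.0706 and 0.0860), and BMP1, the C-propeptidase, of -0.61 (edgeR adjusted p = 0.154). Without replicate 1 labelled KO edgeR called PCOLCE, ADAMTS2 and BMP1 lower (-0.76, -0.50 and -0.37) and ADAMTS3 higher (0.46). That fit called 44.0% of all genes (22.3% higher, 21.7% lower).

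Of the 5 lysyl oxidase genes LOX rose and 4 did not pass. LOX (chromosome 5, 122063195 to 122078259) had 774, 546 and 618 counts in the libraries labelled KO, against 263, 260 and 274 in WT. The mean was 42.4 ± 12.9 CPM in the libraries labelled KO and 16.4 ± 0.881 CPM in WT (SD, n = 3 each; log2 fold change 1.37 ± 0.23, edgeR adjusted p = 0.0103), and the call was lost without any single WT library (edgeR adjusted p between 0.0620 and 0.0662). The span of SRFBP1 overlaps that of LOX, and SRFBP1 had 315, 192 and 202 counts in the libraries labelled KO, against 162, 215 and 194 in WT. The other members lay between a log2 fold change of -0.88 for LOXL4 (edgeR adjusted p = 0.0508) and 1.24 for LOXL1 (edgeR adjusted p = 0.0597), both without overlap between groups. LOXL1-AS1, whose span overlaps that of LOXL1, had 279, 280 and 289 counts in the libraries labelled KO, against 58, 74 and 65 in WT, so LOXL1 counts are uncertain without a stated strand. Without replicate 1 labelled KO both passed edgeR, LOXL4 at -0.82 and LOXL1 at 1.56. Over all libraries DESeq2 called LOXL4 and LOXL1 (DESeq2 adjusted p = 0.0331 and 0.0133) and limma-voom did not (limma-voom adjusted p = 0.0527 and 0.0890). The level summed over the 5 genes, LOXL1 included, was 90.6, 90.2 and 91.4 CPM in the libraries labelled KO, against 65.7, 63.1 and 67.9 CPM in WT. Scaled by library size alone, the sums were 77.1, 93.2 and 94.5 CPM, against 67.6, 65.4 and 70.0 CPM. The make-up of the sum differed as well, with LOX at 62.98%, 36.64% and 40.55% of the counts in replicates 1 to 3 labelled KO.

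Of the 4 collagen-binding matrix proteins SPARC fell and LUM rose, while DCN and BGN had at most 7 counts. SPARC (chromosome 5, 151661096 to 151686915), also called osteonectin, a glycoprotein that binds collagen and affects fibril assembly, had 53, 97 and 82 counts in the libraries labelled KO, against 1136, 1180 and 1222 in WT. Its mean was 4.90 ± 0.982 CPM in the libraries labelled KO and 72.8 ± 2.52 CPM in WT (SD, n = 3 each), a level 14.8-fold higher in WT (log2 fold change -3.89 ± 0.19, edgeR adjusted p = 0.000120). LUM, the keratan sulfate proteoglycan lumican, had 73, 51 and 64 counts in the libraries labelled KO, against 20, 27 and 36 in WT (1.26 ± 0.34, edgeR adjusted p = 0.0455). The call of LUM was lost without any single WT library (edgeR adjusted p between 0.0999 and 0.177) and without replicate 3 labelled KO (edgeR adjusted p = 0.0978).

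**Figure D5:**
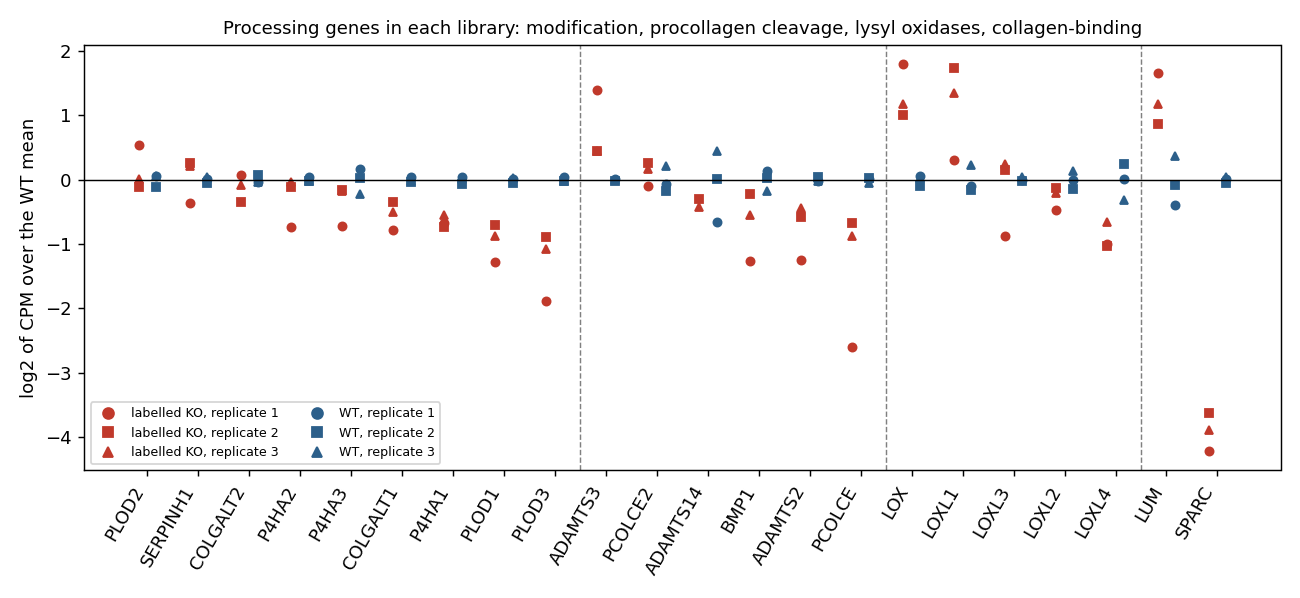
Level of the 22 tested processing genes in each library as log2 of CPM over the mean of the WT libraries, in the order of the classes named in the title. ADAMTS14 has no symbol for replicate 1 labelled KO, where it had 0 counts. SPARC lies between -4.22 and -3.63 in the libraries labelled KO, LOX up to 1.80 above the WT mean, and for PCOLCE replicate 1 labelled KO (-2.59) lies apart from replicates 2 and 3 (-0.67 and -0.87).

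The bases before the annotated starts of 4 called genes are shown as examples (RefSeq promoter table, GRCh38.p14, 250 bases 5′ of the start, given on the strand of the gene). COL5A1, SPARC and COL23A1 were among the members with larger falls, and COL25A1 rose within the same class as COL23A1. COL21A1 and COL3A1 (log2 fold changes -2.46 and -2.43) fell about as much as COL5A1 (-2.44) and are not shown. Capitals again mark CCAAT or GGGCGG on either strand, and TATAAA was searched for as well.
COL5A1, chr9:134641553-134641802, plus strand: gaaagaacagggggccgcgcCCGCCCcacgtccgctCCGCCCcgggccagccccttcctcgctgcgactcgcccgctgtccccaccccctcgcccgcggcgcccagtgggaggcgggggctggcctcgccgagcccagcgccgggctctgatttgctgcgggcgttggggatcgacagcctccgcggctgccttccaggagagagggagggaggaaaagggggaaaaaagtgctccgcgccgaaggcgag
SPARC, chr5:151686916-151687165, minus strand: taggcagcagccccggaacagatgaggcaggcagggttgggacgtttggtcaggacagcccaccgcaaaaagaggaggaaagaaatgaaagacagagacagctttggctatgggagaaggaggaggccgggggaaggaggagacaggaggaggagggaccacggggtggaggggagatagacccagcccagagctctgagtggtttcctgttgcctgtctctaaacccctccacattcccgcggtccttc
COL23A1, chr5:178590394-178590643, minus strand: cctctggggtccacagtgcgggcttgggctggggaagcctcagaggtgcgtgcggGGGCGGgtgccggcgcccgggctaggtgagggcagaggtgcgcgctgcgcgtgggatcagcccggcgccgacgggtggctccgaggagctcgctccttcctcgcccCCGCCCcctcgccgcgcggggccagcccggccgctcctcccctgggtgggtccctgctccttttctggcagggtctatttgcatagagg
COL25A1, chr4:109302659-109302908, minus strand: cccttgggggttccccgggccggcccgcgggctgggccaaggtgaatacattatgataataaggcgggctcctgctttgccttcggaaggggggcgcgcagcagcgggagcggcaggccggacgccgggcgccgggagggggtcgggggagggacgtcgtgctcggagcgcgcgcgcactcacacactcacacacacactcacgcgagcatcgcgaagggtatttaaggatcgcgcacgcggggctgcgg
COL5A1 and COL23A1 hold 2 GGGCGG matches each, and SPARC and COL25A1 hold none of the 3 motifs. CpG pairs numbered 29 in COL5A1, 7 in SPARC, 25 in COL23A1 and 32 in COL25A1. In windows of 300 bases around the start, 50 of the 68 members matched the table. GGGCGG was in 30 of these 50 windows and in 58.5% of those of 15843 protein-coding genes. CCAAT was in 13 of 50 and in 36.4% of all, and TATAAA in 6 of 50 and in 9.63% of all. CCAAT was in 2 of the 5 windows of members that rose and in 1 of the 9 of members that fell, and GGGCGG in 2 of 5 and 6 of 9. A match is a match of letters and not a measured site.

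Other genes of collagen handling were taken from lists, described by count. Of all tested genes 8.64% rose and 6.50% fell, with a median log2 fold change of 0.0055. Of 21 genes for folding and export in the endoplasmic reticulum all were tested, 1 rose, 1 fell, and the median log2 fold change was 0.11. CRTAP and P3H1 encode partners of the prolyl 3-hydroxylation complex. CRTAP had 5144, 5236 and 5015 counts in the libraries labelled KO, against 2940, 3055 and 2980 in WT (0.85 ± 0.14, edgeR adjusted p = 0.00979). P3H1 had 1002, 1728 and 1702 counts in the libraries labelled KO, against 2502, 2714 and 2802 in WT (-0.82 ± 0.17, edgeR adjusted p = 0.0204). Of 7 other procollagen proteinase genes 5 were tested and 1 rose. TLL1, the tolloid-like relative of BMP1, had 46, 44 and 36 counts in the libraries labelled KO and 0 in each WT library, at least 41.2-fold higher with 3 counts over the WT group in place of 0 (edgeR adjusted p = 0.00369).

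Of 12 collagen receptor genes 7 were tested, 1 rose and 1 fell, beside 8.64% and 6.50% of all tested genes. MRC2, the endocytic collagen receptor Endo180, had 192, 551 and 432 counts in the libraries labelled KO, against 1685, 1840 and 1766 in WT (log2 fold change -2.15 ± 0.29, edgeR adjusted p = 0.00494). The integrin α2 gene ITGA2 had 635, 419 and 424 counts in the libraries labelled KO, against 203, 273 and 173 in WT (1.29 ± 0.29, edgeR adjusted p = 0.0291). Of 14 matrix protease and inhibitor genes 8 were tested, 2 rose and 1 fell, beside the same shares of all genes. MMP2, the gelatinase that cleaves denatured and basement membrane collagen, had 80, 104 and 97 counts in the libraries labelled KO, against 579, 595 and 637 in WT (-2.63 ± 0.15, edgeR adjusted p = 0.000193). The membrane-type metalloproteinase genes MMP16 and MMP15 rose. MMP16 had 665, 336 and 342 counts in the libraries labelled KO, against 6, 4 and 7 in WT (6.39 ± 0.52, edgeR adjusted p = 0.000730), and MMP15 had 398, 833 and 754, against 286, 290 and 325 (1.17 ± 0.22, edgeR adjusted p = 0.0154).

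Of 18 other proteoglycan and fibril-organiser genes 9 were tested, none rose and 4 fell: MATN3, COMP, FBLN1 and FBLN2. Of all tested genes 8.64% rose and 6.50% fell. The cartilage matrix gene MATN3 had 18, 23 and 27 counts in the libraries labelled KO, against 95, 105 and 118 in WT (log2 fold change -2.17 ± 0.24, edgeR adjusted p = 0.00215). COMP, also of cartilage matrix, had 19, 23 and 40 counts in the libraries labelled KO, against 106, 95 and 129 in WT (-1.96 ± 0.31, edgeR adjusted p = 0.00816). FBLN1, which encodes fibulin 1, had 892, 1844 and 1856 counts in the libraries labelled KO, against 3806, 3747 and 3865 in WT (-1.29 ± 0.22, edgeR adjusted p = 0.0114). The calls of TLL1, MRC2, MMP2, MMP16 and MATN3 held with each of the 6 libraries left out in turn, and those of the other 7 called list genes did not. COMP lost its call without WT replicate 3 (edgeR adjusted p = 0.0528). CRTAP and FBLN1 lost theirs without any single WT library (edgeR adjusted p between 0.0554 and 0.0777), and P3H1, ITGA2, MMP15 and FBLN2 also without replicate 3 labelled KO (edgeR adjusted p between 0.0518 and 0.0898).

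Within the list of fibroblast and mesenchymal markers single genes differed between the groups, in opposite directions. Of its 8 genes 4 were tested, PRRX1 rose and POSTN fell, and FAP had 0 counts in all libraries. PDGFRA (log2 fold change 0.41, edgeR adjusted p = 0.477) and ACTA2 (0.001, edgeR adjusted p = 0.999) did not pass. PRRX1, a transcription factor of limb and craniofacial mesenchyme, had 274, 235 and 260 counts in the libraries labelled KO, against 4, 4 and 1 in WT (log2 fold change 6.43 ± 0.40, edgeR adjusted p = 0.000267). POSTN, which encodes the matrix protein periostin, had 0, 1 and 1 counts in the libraries labelled KO, against 18, 33 and 14 in WT (-4.73 ± 0.74, edgeR adjusted p = 0.00813). The summed level of the 8 genes ranged from 17.5 to 23.8 CPM in the libraries labelled KO and from 4.35 to 9.42 CPM in WT, and THY1 had at most 4 counts. Without PRRX1 the other 7 genes summed to between 3.27 and 4.14 CPM in the libraries labelled KO and between 4.09 and 9.18 CPM in WT. TWIST2, a mesenchymal transcription factor, had 0, 6 and 1 counts in the libraries labelled KO, against 4, 68 and 66 in WT, and was below the edgeR filter over all libraries (DESeq2 adjusted p = 0.00149). Without replicate 1 labelled KO edgeR called TWIST2 lower (-3.67, edgeR adjusted p = 0.000584), as it did without WT replicate 1 (-4.71, edgeR adjusted p = 0.0383). TWIST2 did not pass without replicate 2 or 3 labelled KO (edgeR adjusted p = 0.0569 and 0.145). All 3 neuronal filament genes, known to be expressed in HEK-293 cells, were tested. INA had 459, 393 and 411 counts in the libraries labelled KO and 0 in each WT library, at least 413-fold higher with 3 counts over the WT group in place of 0 (edgeR adjusted p = 0.000457). NEFL fell (-1.48 ± 0.17, edgeR adjusted p = 0.00252) and NEFM did not pass (-0.08 ± 0.12, edgeR adjusted p = 0.659), and the list summed to between 220.5 and 256 CPM in the libraries labelled KO and between 330 and 350.9 CPM in WT. Of 5 epithelial markers 4 were tested and none passed, with sums between 111.9 and 185.5 CPM in the libraries labelled KO and between 116.7 and 125.2 CPM in WT, and KRT8 passed as higher without replicate 1 labelled KO (0.72, edgeR adjusted p = 2.37e-07). The part of these differences in the collagen results was not tested.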

How the data were processed

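For each of the 6 libraries the authors deposited raw read counts by gene. The submitters' processing notes name HISAT2 2.2.1, HTSeq 0.12.4 and the GRCh38 build, with no order of steps or counting options, so the use of strand is unknown. Reads in no feature (10.4% to 15.9% in the libraries labelled KO, 8.75% to 9.87% in WT) and ambiguous reads (9.74% to 11.9% and 11.6% to 12.5%) were left out. Names came from an Ensembl table, and biotypes, positions and sequences from RefSeq tables of GRCh38.p14, which hold 86.5% of the tested genes. Coverage files of the mitochondrial chromosome were not used here.

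All genes were fitted together with edgeR 4.0.16 in R 4.3.3 (TMM, filterByExpr, quasi-likelihood F test, group as the term), with Benjamini-Hochberg adjustment over 17452 genes at 0.05. The functions were tested on simulated data. Members, lists, motifs and tests were chosen with earlier results of these data known. Values are given for called members, the most counted gene of a class, partner chains, and up to 3 called genes per list and direction. The other named genes (COL9A2, COL9A3, COL10A1, COL13A1, PCOLCE, ADAMTS2, ADAMTS3, BMP1, COLGALT1, SERPINH1, LOXL1, LOXL4, PRRX1, POSTN, PDGFRA, ACTA2, TWIST2, KDR, INA, NEFL and KRT8) were chosen after their values were seen, as were the pairs of genes in count ratios. Same-numbered libraries of the 2 groups did not deviate together from their group means (Pearson's r of -0.0585, -0.0289 and 0.00216), so replicate numbers were not taken as pairs. Alternatives were DESeq2 1.42.0, limma-voom (limma 3.58.1), other scalings and filters, a replicate block, removal of mitochondrial genes, and each library left out.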

Additional observations from a re-analysis of the deposited data

How the results depend on the processing

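All 19 member calls kept their direction in each of the 15 alternative fits. With 1 library left out the number of called members ranged from 7 (each WT library) to 37 (replicate 1 labelled KO), and that of all called genes from 644 to 7975. A replicate block, on numbers that did not pair the libraries, gave 10 called members (5 higher, 5 lower) and 969 called genes. All 19 members kept their call with RLE scaling, DESeq2, limma-voom, both other filters and the removal of mitochondrial genes, 18 with upper-quartile scaling and 17 with library size alone. Some fits called further members. DESeq2 called 26 (10 higher, 16 lower), limma-voom 20 (7 higher, 13 lower) and edgeR with no filter on low counts 24 (10 higher, 14 lower). The difference in summed collagen chain level per library, labelled KO minus WT, was -134.9 CPM, within the SD of 212 CPM over libraries labelled KO, and -18.9 CPM without replicate 1 labelled KO. Some members that did not pass over all libraries changed direction when a library labelled KO was left out, and their log2 fold changes over the 6 fits with any 1 library left out ranged from -0.21 to 0.22 for COL4A1, -0.012 to 0.67 for COL4A2, -0.49 to 0.34 for COL9A2, -0.72 to 0.37 for COL9A3, -0.018 to 0.63 for COL18A1, -0.20 to 0.006 for COLGALT2, -0.042 to 0.31 for PLOD2, -0.035 to 0.25 for SERPINH1 (-0.018 without replicate 3 labelled KO) and -0.27 to 0.20 for LOXL3. The cause was not tested.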
